A study of Mus musculus with 6 samples.

Results

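The genes described here are 38 genes of glycolysis, glucose uptake, pyruvate use and lactate transport, chosen by name as a metabolic pathway and read across 6 RNA-seq libraries of mouse CD4+ T cells. All 38 were present among the 38216 gene symbols of the table, 1 of them (Tigar) under an older symbol, and 37 of them were among the 13311 genes that passed the filter on low values. Cells were sorted from spleens of C57BL/6 mice carrying the IL21-VFP reporter, in which the fluorescent protein VFP marks cells that transcribe Il21, on postnatal day 28. The design text calls the mice naïve, and no treatment separates the groups. The N pool held VFP-ICOS- CD4+ cells, the ACT pool VFP-ICOS+ CD4+ cells and the ACT IL21 pool VFP+ICOS+ CD4+ cells, where ICOS is a costimulatory receptor raised on activated T cells. Each pool was sequenced as 2 libraries (n = 2 throughout), and how many animals went into a pool is not given in the sources used here. P-values therefore measure the spread between libraries, which may be technical.

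Glycolysis splits glucose into pyruvate in the cytosol. A preparatory phase phosphorylates the sugar and cleaves it, and a payoff phase returns ATP and NADH. Pyruvate is then either reduced to lactate, which leaves the cell through monocarboxylate transporters, or carried into mitochondria and fed to the pyruvate dehydrogenase complex, which pyruvate dehydrogenase kinases switch off. Resting naive T cells rely mostly on respiration, and activated T cells are known to raise glucose uptake and glycolysis under the transcription factors Myc and HIF-1.

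The libraries had 12095 to 12396 genes at 1 TPM (a relative transcript level corrected for length, with a fixed total per library) or more. TPM does not record the number of reads, so the depth is unknown. The sort was checked on its markers: Icos was at 31.9 to 35.7 TPM in N and at 185 to 254 TPM in the ICOS+ pools, and Il21 was at 44.5 and 51.9 TPM in ACT IL21 and at most 1.26 TPM elsewhere. All 10 CD4 T cell markers were present in every library, but not at equal levels. Cd4 was at 358 and 316 TPM in N, 268 and 236 TPM in ACT and 534 and 567 TPM in ACT IL21. By limma Cd4 was higher in ACT IL21 than in ACT (adjusted p = 0.0103) and than in N (0.0301). Cd28 was higher in ACT IL21 than in N (0.00899). Cd247 was lower in ACT than in N (0.0221) and higher in ACT IL21 than in ACT (0.0205). The other markers of this list passed in no comparison. Of the CD8 T cell markers, Cd8a was at most 0.36 TPM and Cd8b1 was at 26.7 and 18.7 TPM in N and 3.41 to 9.80 TPM in the ICOS+ pools. Of 10 B and plasma cell markers 2 (Pax5, Blk) were listed at 0 in every library, and the list summed to 1.05 to 3.16 TPM in N, 4.97 to 5.88 TPM in ACT and 14.6 to 25.02 TPM in ACT IL21, where Cd22 was at 13.1 and 17.5 TPM and rose over N (limma adjusted p = 0.00344). Of 12 myeloid and dendritic cell markers 3 (Cd14, S100a8, S100a9) were at 0 throughout, and the list summed to 32.8 to 39.4, 55.0 to 69.9 and 50.4 to 55.8 TPM. Cst3 made up most of that sum at 26.5 to 68.3 TPM and rose in ACT over N (limma adjusted p = 0.0338), while Fcgr3 was at most 4.51 TPM and Itgam at most 2.35 TPM. The list of natural killer and NKT cell markers summed to 55.3 to 63.9 TPM in N, 575 to 602 TPM in ACT and 58.0 to 72.2 TPM in ACT IL21, with Ncr1 at most 1.06 TPM. Xcl1 (195 and 228 TPM) and Klrb1c (166 and 177 TPM) made up most of the ACT sum. By limma 4 of the 10 tested markers rose in ACT over N (all genes: 4.15%) and 0 fell (all genes: 1.43%). Not all followed the sum: Prf1 was highest in N (7.27 and 7.93 TPM, 0.92 and 5.76 TPM in ACT) and Tyrobp in ACT IL21 (3.04 and 3.05 TPM, 0.39 and 2.47 TPM in ACT). Cycling-cell markers summed to 367 to 503 TPM in N, 622 to 696 TPM in ACT and 626 to 718 TPM in ACT IL21. Pcna, at 308 to 539 TPM in all libraries, carried that sum, and Mki67 was at 4.02 and 2.58 TPM in N, 38.5 and 34.7 TPM in ACT and 57.2 and 57.9 TPM in ACT IL21. Erythroid and platelet markers summed to 28.3 to 88.1, 34.7 to 56.9 and 43.3 to 152 TPM in the same order.

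Most of the pathway's genes did not pass the test, which at n = 2 does not show that they were unchanged. Those that passed were spread over several roles. Against N, ACT had higher RNA of Slc2a3, Tpi1, Pgam1, Slc16a6 and Hif1a and lower RNA of Pdk1 and Slc16a5, so 5 of 37 tested members rose (all genes tested: 4.15% higher) and 2 fell (all genes tested: 1.43% lower). Together these were 18.9% of the members, against 5.58% of all genes. ACT IL21 had higher RNA than N of Pfkp, Gapdh, Pgam1 and Hif1a and lower RNA of Pdk1, Slc16a5 and Myc, which made 4 members higher (all genes: 3.82%) and 3 lower (all genes: 1.26%), or 18.9% against 5.09%. Between the ICOS+ pools, Slc16a5 was higher in ACT IL21 (all genes: 0.796%) and Slc2a3 lower (all genes: 1.15%), or 5.41% of members against 1.95% of all genes. The calls are from limma on log2(TPM + 1) at a Benjamini-Hochberg adjusted p under 0.05 over all genes tested. Both comparisons with N use the same N libraries, so they are not independent. In bulk RNA, fewer cells of a type and less RNA per cell cannot be told apart.

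The median log2 fold change of the 37 members was 0.22 in ACT against N (all genes: 0.02), 0.36 in ACT IL21 against N (all genes: 0.10) and 0.05 in ACT IL21 against ACT (all genes: 0.08). Quantile normalization moved the median of all genes in ACT IL21 against N from 0.10 to -0.05 and that of the members from 0.36 to 0.28. The pools did not overlap for 23 of 37 members in the first comparison, against 47% of all genes: 16 were higher in ACT (all genes: 25.2%) and 7 lower (21.9%). In ACT IL21 against N, 19 members were higher in both libraries (all genes: 31.5%) and 7 lower (19.9%), together beside 51.4% of all genes. In ACT IL21 against ACT, 9 were higher (24.5%) and 7 lower (17.3%), beside 41.8% of all genes. These shares are close to the background for lower values and above it for higher values in both comparisons with N.

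**Figure D1:**
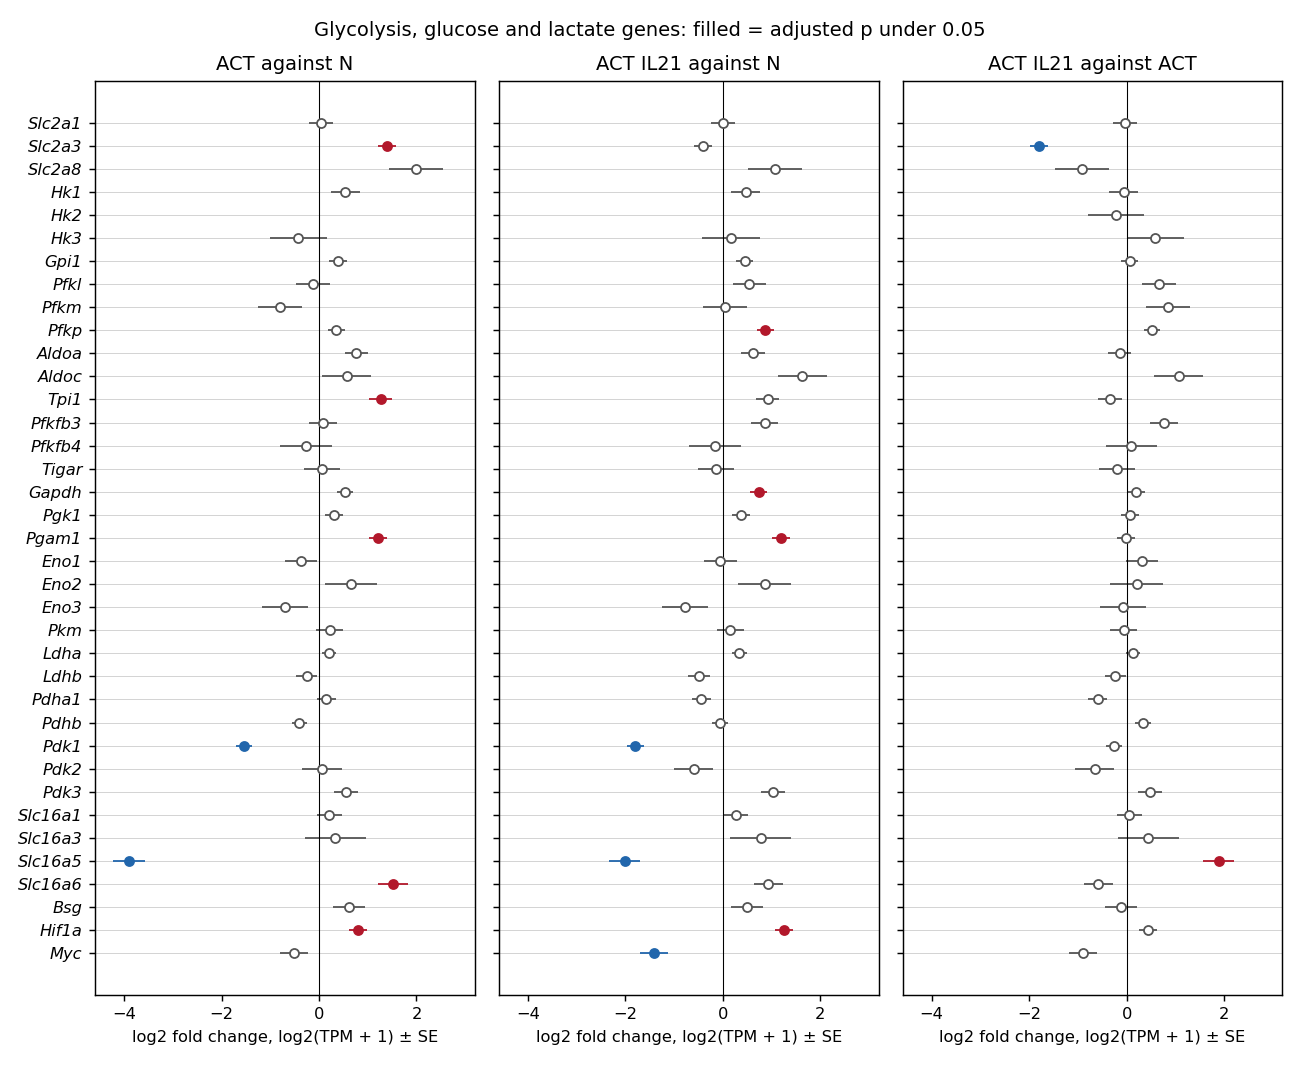
Log2 fold change on the log2(TPM + 1) scale (x axis, points with SE) of the 37 tested members (y axis) in the 3 comparisons, with filled points for an adjusted p under 0.05 (red higher, blue lower). Most points are open and lie near 0. The filled points farthest from 0 are those of Slc16a5 in ACT against N (-3.91) and in ACT IL21 against N (-2.02). Hk2, listed at 0 in both N libraries, has no point against N.

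Hif1a and Myc encode transcription factors that drive glycolytic genes, and in ACT IL21 against N their RNA changed in opposite directions. Hif1a (chromosome 12, 73901375 to 73947530, plus strand, GRCm38, protein-coding), the oxygen-regulated subunit of HIF-1, stood at 69.8 and 86.8 TPM in N, 121 and 155 TPM in ACT and 192 and 181 TPM in ACT IL21. Every ACT library lay above both N libraries and below both ACT IL21 libraries. By limma Hif1a rose in ACT IL21 over N by a log2 fold change of 1.25 ± 0.18 SE (adjusted p = 0.00853) and in ACT over N by 0.81 ± 0.18 (adjusted p = 0.0455), and the value between ACT IL21 and ACT was 0.44 (adjusted p = 0.316). The ACT call ended without any 1 of the 6 libraries (adjusted p = 0.0566 to 0.298) and under 12 of 15 alternatives in all, both rescalings among them. The ACT IL21 call ended without either N or either ACT IL21 library (adjusted p = 0.0569 to 0.126) and without an intensity trend.

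Myc (chromosome 15, 61985391 to 61990374, plus strand, protein-coding), whose product raises transcription of growth and metabolic genes after T cell activation, stood at 81.7 and 48.7 TPM in N, 50.9 and 37.9 TPM in ACT and 24.2 and 22.1 TPM in ACT IL21. Both ACT IL21 libraries were below all others, while N and ACT overlapped. Myc fell in ACT IL21 against N (log2 fold change -1.41 ± 0.28 SE, limma adjusted p = 0.0297), and the values were -0.51 in ACT against N (adjusted p = 0.39) and -0.90 in ACT IL21 against ACT (adjusted p = 0.188). The call ended without either N or either ACT IL21 library (adjusted p = 0.0652 to 0.229), without a filter on low values and without an intensity trend.

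HIF-1 binds a short core written ACGTG or GCGTG, and Myc binds the E-box CACGTG, which holds ACGTG on both strands. Promoter windows of RefSeq (GRCm38.p6), read here as the 250 bases before a transcription start, were given for 33 members, and Slc2a3, Slc16a5, Slc16a6, Bsg and Myc are named only. Searched on both strands, ACGTG was in 19 of the 47 member windows (40.4%, all windows 16.6%), GCGTG in 25 (53.2%, all windows 28.2%) and CACGTG in 6 (12.8%, all windows 6.02%). Some windows of a gene overlap and share a match. By gene, ACGTG was in 16 of the 33 members (all genes 18.5%), GCGTG in 21 (30.9%) and CACGTG in 6 (6.86%). The member windows had a median GC content of 61.6% against 52.4% for all windows, and the part of GC content in these shares was not tested. The windows of Hif1a, of Pgam1, which rose in both ICOS+ pools, and of Pdk1, which fell in both, are shown because these members passed the test in both comparisons with N. Pdk1 has a second RefSeq window, chr2:71874654-71874903, which holds none of the searched letters and is not shown. Capitals mark the searched letters on either strand, and a match is a description, not a bound site.
Hif1a, chr12:73907617-73907866, plus strand: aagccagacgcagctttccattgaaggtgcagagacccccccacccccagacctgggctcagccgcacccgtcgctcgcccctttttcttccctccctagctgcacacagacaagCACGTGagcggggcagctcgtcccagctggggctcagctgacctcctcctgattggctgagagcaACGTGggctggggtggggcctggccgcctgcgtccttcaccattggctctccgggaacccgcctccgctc
Pgam1, chr19:41911621-41911870, plus strand: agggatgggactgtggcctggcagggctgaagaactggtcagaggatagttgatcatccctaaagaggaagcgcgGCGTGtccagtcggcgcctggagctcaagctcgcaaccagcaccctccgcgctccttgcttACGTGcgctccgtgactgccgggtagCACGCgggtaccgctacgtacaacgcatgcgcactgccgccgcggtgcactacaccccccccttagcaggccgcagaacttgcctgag
Pdk1, chr2:71872974-71873223, plus strand: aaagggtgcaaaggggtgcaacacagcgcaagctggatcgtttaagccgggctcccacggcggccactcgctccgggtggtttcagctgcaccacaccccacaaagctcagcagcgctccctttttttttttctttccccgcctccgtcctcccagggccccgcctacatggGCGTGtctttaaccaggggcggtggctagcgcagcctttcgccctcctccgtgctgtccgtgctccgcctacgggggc
The Hif1a window held ACGTG letters at 3 strand-specific positions, of which 2 belong to 1 CACGTG. The Pgam1 window held ACGTG once and GCGTG letters at 2 positions, and the Pdk1 window shown GCGTG at 1 position with neither ACGTG nor CACGTG.

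Among glucose transporters, the high-affinity transporter gene Slc2a3 was high in ACT alone. Slc2a3 (GLUT3, chromosome 6, 122727809 to 122801640, minus strand, protein-coding) was at 33.2 and 34.1 TPM in N, 92.7 and 87.8 TPM in ACT and 27.2 and 23.3 TPM in ACT IL21. Both ACT libraries stood far above the other 4, and both ACT IL21 libraries were below N. By limma it rose in ACT over N by a log2 fold change of 1.40 ± 0.19 SE (adjusted p = 0.00487) and was lower in ACT IL21 than in ACT (-1.80 ± 0.19, adjusted p = 0.00537), while ACT IL21 against N gave -0.40 (adjusted p = 0.304). The first call ended without N replicate 1 (adjusted p = 0.0737) or N replicate 2 (0.0678), and the other without ACT replicate 1 (0.0513), ACT IL21 replicate 1 (0.0769) or ACT IL21 replicate 2 (0.118). The sum of the natural killer and NKT markers, at 575 to 602 TPM in ACT and 55.3 to 72.2 TPM in the other pools, moved with Slc2a3. The part of these markers in the result was not tested.

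Slc2a1 (GLUT1), the transporter known for its rise when T cells are stimulated, was at 25.2 and 19.3 TPM in N, 24.9 and 20.9 TPM in ACT and 22.4 and 22.0 TPM in ACT IL21. Its pools overlapped in every comparison, and its log2 fold change against N was 0.04 ± 0.25 SE in ACT and 0.01 ± 0.25 in ACT IL21. Slc2a8 (GLUT8), an intracellular hexose transporter, was at 1.82 and 0.74 TPM in N, 12.6 and 4.74 TPM in ACT and 2.76 and 4.83 TPM in ACT IL21, with a log2 fold change of 2.00 ± 0.56 in ACT against N that missed the threshold (limma adjusted p = 0.0874). Slc2a6 (GLUT6) was at most 0.70 TPM and was not tested. As a share of the summed TPM of these 4 transporters, Slc2a3 made up 54.7% and 63.0% in N, 70.8% and 77.4% in ACT and 51.9% and 46.1% in ACT IL21, so it was the leading transporter in all 6 libraries. The sum itself was 60.7 and 54.2 TPM in N, 131 and 113 TPM in ACT and 52.4 and 50.5 TPM in ACT IL21.

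**Figure D2:**
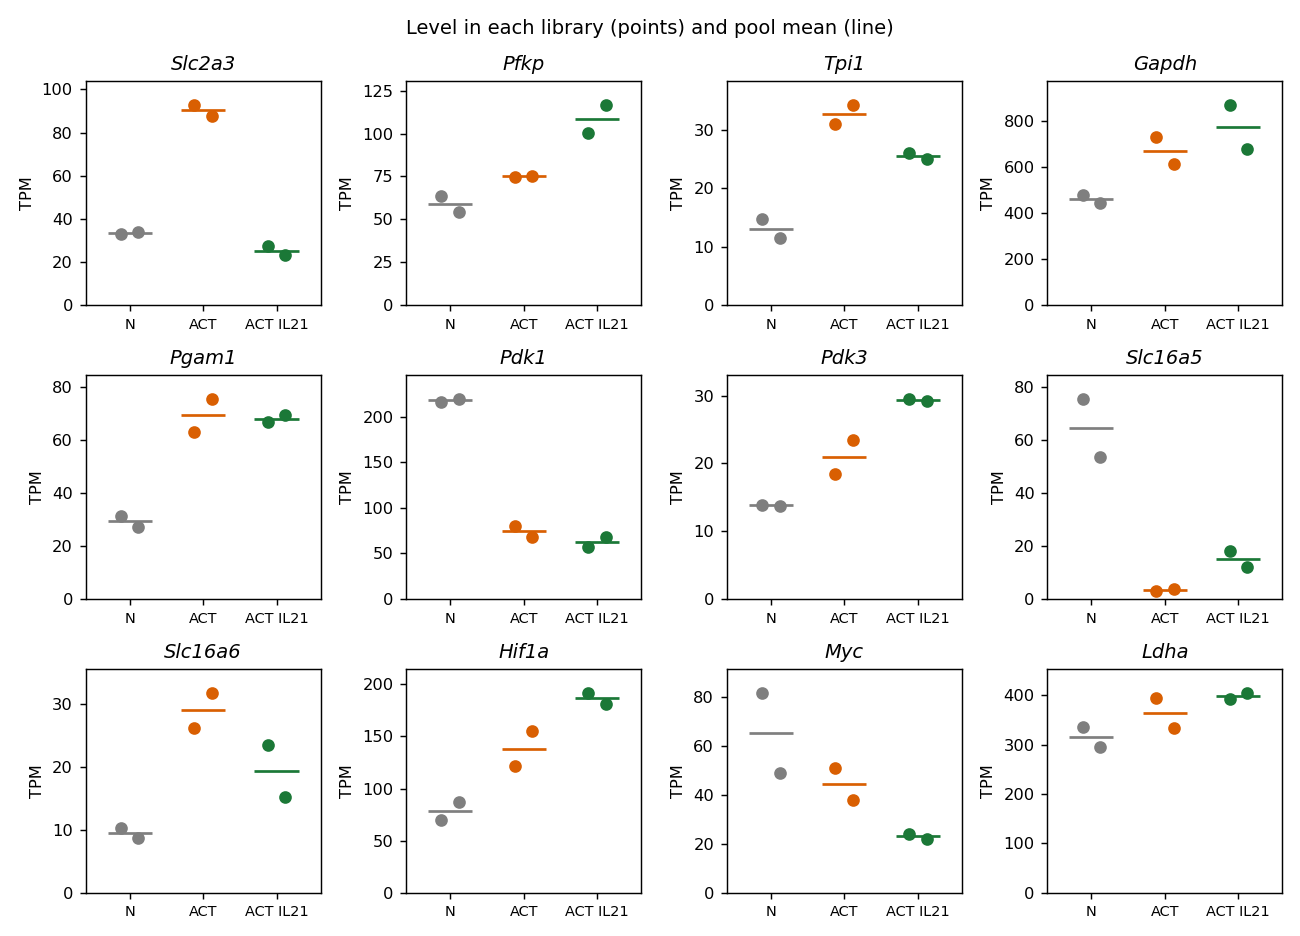
TPM (y axis, from 0) in each library (points, 2 for each of N, ACT and ACT IL21) and pool mean (line) for 12 members. Slc2a3 is high in ACT alone (87.8 and 92.7 TPM), Pdk1 and Slc16a5 are highest in N, and Hif1a, Pfkp and Pdk3 are highest in ACT IL21.

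In the preparatory phase, 10 members were tested, and 1 rose in each comparison with N (all genes: 4.15% and 3.82% higher) while none fell. Tpi1 (chromosome 6, 124810586 to 124814296, minus strand, protein-coding), the triose phosphate isomerase that interconverts the products of aldolase, rose from 14.7 and 11.5 TPM in N to 31.1 and 34.2 TPM in ACT (log2 fold change 1.26 ± 0.24 SE, limma adjusted p = 0.0235). At 26.0 and 25.1 TPM in ACT IL21 it stood above both N libraries and below both ACT libraries, with 0.92 against N (adjusted p = 0.0812). The ACT call ended without any 1 of the 6 libraries (adjusted p = 0.069 to 0.218) and when only the compared pools were fitted.

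Pfkp (chromosome 13, 6579768 to 6648777, minus strand, protein-coding), the platelet-type phosphofructokinase of the committed step, stood at 63.3 and 54.1 TPM in N, 74.8 and 75.4 TPM in ACT and 100 and 117 TPM in ACT IL21. The pools stood in that order without overlap, and the rise passed in ACT IL21 against N (log2 fold change 0.88 ± 0.17 SE, limma adjusted p = 0.027). In ACT against N the value was 0.35 (adjusted p = 0.324), and in ACT IL21 against ACT 0.52 (adjusted p = 0.208). The call ended without either N or either ACT IL21 library (adjusted p = 0.12 to 0.247) and without an intensity trend. Pfkp was the main isoform, at 80.6% to 88.9% of phosphofructokinase TPM in every library, ahead of the liver type Pfkl (8.06% to 11.3%) and the muscle type Pfkm (2.25% to 8.66%).

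The other preparatory enzymes did not pass. Hk1, the widely expressed hexokinase, was at 27.5 and 19.2 TPM in N, 43.2 and 26.3 TPM in ACT and 34.3 and 30.5 TPM in ACT IL21, and made up 91.6% to 96.7% of hexokinase TPM. Hk2, the isoform known for induction in activated and growing cells, had 2.45 and 1.13 TPM in ACT and 2.71 and 0.45 TPM in ACT IL21, and each N library lists it at 0. Hk3, an isoform of myeloid cells, was at most 2.19 TPM. Gpi1, glucose phosphate isomerase, had means of 159 ± 29.2 TPM in N, 207 ± 31.5 in ACT and 215 ± 6.28 in ACT IL21 (SD, n = 2). Aldoa, the main aldolase, stood at 155 and 120 TPM in N, 294 and 183 TPM in ACT and 203 and 217 TPM in ACT IL21, above N in all 4 ICOS+ libraries, with log2 fold changes of 0.76 in ACT (limma adjusted p = 0.123) and 0.62 in ACT IL21 (adjusted p = 0.21). Aldoc, the brain-type aldolase, reached 4.10 and 8.82 TPM in ACT IL21 from 1.62 and 0.98 TPM in N (1.64, adjusted p = 0.128).

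Genes that set fructose 2,6-bisphosphate, the activator of phosphofructokinase, did not pass in any comparison. Pfkfb3, whose enzyme makes this activator, was at 19.7 and 17.0 TPM in N, 22.0 and 17.2 TPM in ACT and 27.6 and 41.7 TPM in ACT IL21. Both ACT IL21 libraries were above the other 4, and the log2 fold change was 0.86 against N (limma adjusted p = 0.151) and 0.77 against ACT (adjusted p = 0.257). Pfkfb4 was at most 2.42 TPM. Tigar, whose product degrades the activator, stayed between 5.35 and 8.07 TPM.

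In the payoff phase 1 of 7 members rose in ACT, Pgam1, the phosphoglycerate mutase gene (all genes: 4.15% higher). In ACT IL21 against N 2 of 7 rose (all genes: 3.82% higher). They were Pgam1 and Gapdh, whose enzyme makes the NADH of glycolysis. Pgam1 (chromosome 19, 41911923 to 41918660, plus strand, protein-coding) rose from 31.4 and 27.4 TPM in N to 63.1 and 75.7 TPM in ACT and 67.0 and 69.5 TPM in ACT IL21. All 4 ICOS+ libraries stood above both N libraries, and the ICOS+ pools overlapped. The log2 fold change was 1.21 ± 0.19 SE in ACT (limma adjusted p = 0.00953) and 1.19 ± 0.19 in ACT IL21 (adjusted p = 0.0111), and ACT IL21 against ACT gave -0.02 (adjusted p = 0.975). The ACT call ended without N replicate 1 (adjusted p = 0.0738) or N replicate 2 (0.116), and the ACT IL21 call without either N or either ACT IL21 library (adjusted p = 0.0867 to 0.13) and without an intensity trend.

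Gapdh (chromosome 6, 125161715 to 125166467, minus strand, protein-coding) had the highest mean of the 38 members, at 479 and 444 TPM in N, 730 and 611 TPM in ACT and 869 and 680 TPM in ACT IL21. Both ICOS+ pools lay above N and overlapped each other. Its rise passed in ACT IL21 against N (log2 fold change 0.74 ± 0.17 SE, limma adjusted p = 0.0493) but ended without any 1 of the 6 libraries (adjusted p = 0.0522 to 0.333) and under 13 of 15 alternatives. ACT against N gave 0.53 (adjusted p = 0.128).

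Gapdh and Pgam1 share sequence with retrocopies, to which the authors' estimation could assign their reads. A search of each member's coding sequence against the GENCODE M21 transcripts, at 95% identity over at least 50% of its length, found 74 copies of Gapdh, 70 of them annotated as pseudogenes, and 48 of the copies were in the table. Their summed TPM was 574 and 291 in N, 948 and 452 in ACT and 803 and 1008 in ACT IL21, or 107% of Gapdh itself over the 6 libraries. For Pgam1 there was 1 copy, Pgam1-ps2, at 62.8 and 80.2 TPM in N, 114 and 143 TPM in ACT and 96.3 and 84.5 TPM in ACT IL21, or 174% of Pgam1. With copies added, Pgam1 was at 94.2 and 108 TPM in N, 177 and 219 TPM in ACT and 163 and 154 TPM in ACT IL21, still without overlap with N. On these sums the Pgam1 rise passed in ACT (log2 fold change 0.96, limma adjusted p = 0.0145) and no longer in ACT IL21 (0.65, adjusted p = 0.07), and that of Gapdh in ACT IL21 did not pass (0.93, adjusted p = 0.082). For each other member searched, the copies that were in the table held 1.26% or less of the member's TPM. Of 3 Eno1 copies 1 was in the table, and the copies of Ldha, Pkm and Pdhb were not. The full copy share of those members was therefore not measured. No copy of Tpi1, Pfkp, Pdk1, Slc2a3, Slc16a5, Slc16a6, Hif1a or Myc met the limits of the search.

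**Figure D3:**
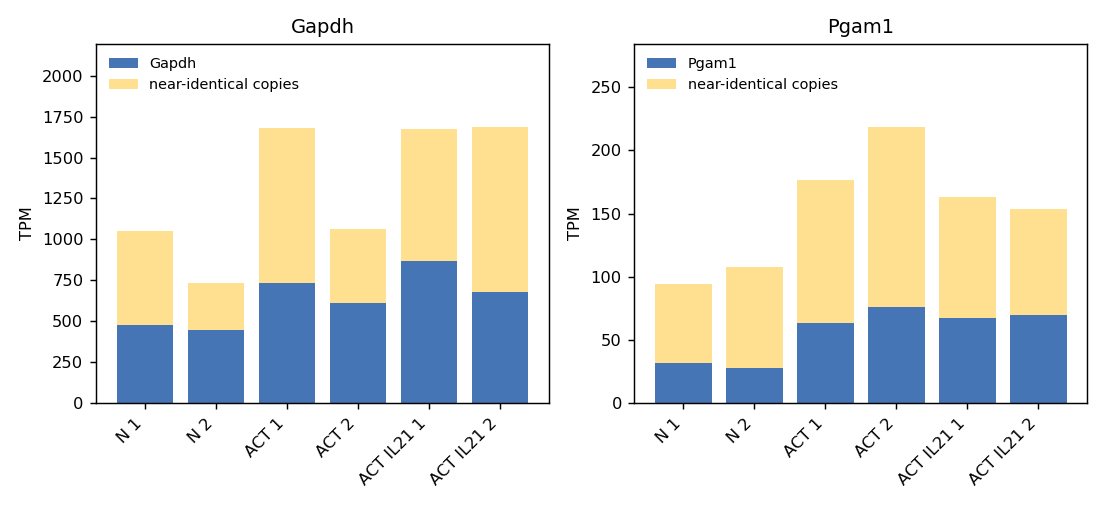
Stacked bars of TPM (y axis) for Gapdh and Pgam1 (blue) and their near-identical copies in the table (yellow) in each of the 6 libraries (x axis). The copies reach 1008 TPM for Gapdh in ACT IL21 replicate 2 and exceed Pgam1 itself in every library.

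The remaining payoff genes did not pass. Pgk1, phosphoglycerate kinase, was at 99.3 and 136 TPM in N, 149 and 138 TPM in ACT and 142 and 158 TPM in ACT IL21. Eno1, the main enolase at 92.2% to 95.7% of enolase TPM, differed between the replicates of N and of ACT, at 332 and 181 TPM in N, 255 and 141 TPM in ACT and 236 and 237 TPM in ACT IL21. Eno3, the muscle enolase, was at 5.61 to 19.4 TPM and Eno2, the neuronal form, at most 4.91 TPM. Pkm, the pyruvate kinase gene, was at 102 and 70.6 TPM in N, 128 and 76.0 TPM in ACT and 89.6 and 99.9 TPM in ACT IL21, and a gene-level table does not separate its PKM1 and PKM2 transcripts. Summed over the 17 enzyme genes of both phases, TPM was 1521 and 1231 in N, 2031 and 1568 in ACT and 2020 and 1893 in ACT IL21. The pools did not overlap between N and ACT or between N and ACT IL21, which held for 47% and 51.4% of all genes tested. The highest N library (1521 TPM) was near the lowest ACT library (1568 TPM). Gapdh was the largest part of each sum, at 479 and 444 TPM in N and 730 and 611 TPM in ACT. Without Gapdh the sums of N and ACT overlapped. In N and in ACT, replicate 1 exceeded replicate 2 for 24 of 37 members, with median log2 differences of 0.20 and 0.24 (all genes: 0.04 and 0.03), and in ACT IL21 for 18 (-0.01, all genes -0.02).

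Lactate dehydrogenase genes did not pass. Ldha, which favours lactate formation, was at 336 and 294 TPM in N, 395 and 333 TPM in ACT and 392 and 405 TPM in ACT IL21, with log2 fold changes of 0.20 ± 0.15 SE and 0.34 ± 0.15 against N (limma adjusted p = 0.539 and 0.27). Ldhb, the form that favours pyruvate, was at 44.9 and 46.9 TPM in N, 36.5 and 40.1 TPM in ACT and 38.4 and 27.4 TPM in ACT IL21. All 4 ICOS+ libraries were below N for Ldhb. The Ldha share of the summed TPM was 88.2% and 86.2% in N, 91.5% and 89.2% in ACT and 91.1% and 93.7% in ACT IL21.

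At the pyruvate branch point 1 of 3 kinase genes, Pdk1, fell in both comparisons with N (all genes: 1.43% and 1.26% lower). Neither tested gene of the enzyme the kinases act on passed. Pdk1 (chromosome 2, 71873224 to 71903858, plus strand, protein-coding), a kinase that inactivates pyruvate dehydrogenase and a known HIF-1 target, fell from 216 and 220 TPM in N to 80.7 and 68.2 TPM in ACT and 57.0 and 67.6 TPM in ACT IL21. Both N libraries were far above all 4 ICOS+ libraries. Pdk1 fell by 1.54 ± 0.17 SE on the log2 scale in ACT (limma adjusted p = 0.00179) and by 1.80 ± 0.17 in ACT IL21 (adjusted p = 0.00129), and both calls held under all 15 alternatives (adjusted p up to 0.0393 and 0.0459). ACT IL21 against ACT gave -0.25 (adjusted p = 0.539). Pdk3, a related kinase, stood at 13.9 and 13.8 TPM in N, 18.5 and 23.4 TPM in ACT and 29.5 and 29.2 TPM in ACT IL21. The pools stood in that order without overlap, but no comparison passed. The log2 fold change was 1.04 ± 0.25 in ACT IL21 against N (limma adjusted p = 0.0565) and 0.56 ± 0.25 in ACT against N (adjusted p = 0.282). It was 0.48 ± 0.25 in ACT IL21 against ACT (adjusted p = 0.419). Pdk2 was at 3.53 to 8.12 TPM.

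The kinase shares therefore differed between N and the ICOS+ pools, as a description without a test. Pdk1 was the largest part of the sum in every library, so a fall of Pdk1 alone lowers the total and raises the other shares. The Pdk1 share of the 3 kinases was 90.8% and 92.2% in N, 76.3% and 69.5% in ACT and 62.9% and 67.4% in ACT IL21, and that of Pdk3 was 5.83% and 5.77%, 17.5% and 23.9%, and 32.6% and 29.1%. The summed kinase TPM was 238 in both N libraries, 106 and 98.0 in ACT and 90.6 and 100 in ACT IL21. Pdha1, the catalytic subunit gene of pyruvate dehydrogenase, was at 133 and 149 TPM in N, 140 and 174 TPM in ACT and 89.2 and 120 TPM in ACT IL21. Pdhb, the partner subunit, was at 145 and 152 TPM, 107 and 117 TPM, and 157 and 128 TPM. The largest of their log2 fold changes in size was -0.59 for Pdha1 in ACT IL21 against ACT (limma adjusted p = 0.21).

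**Figure D4:**
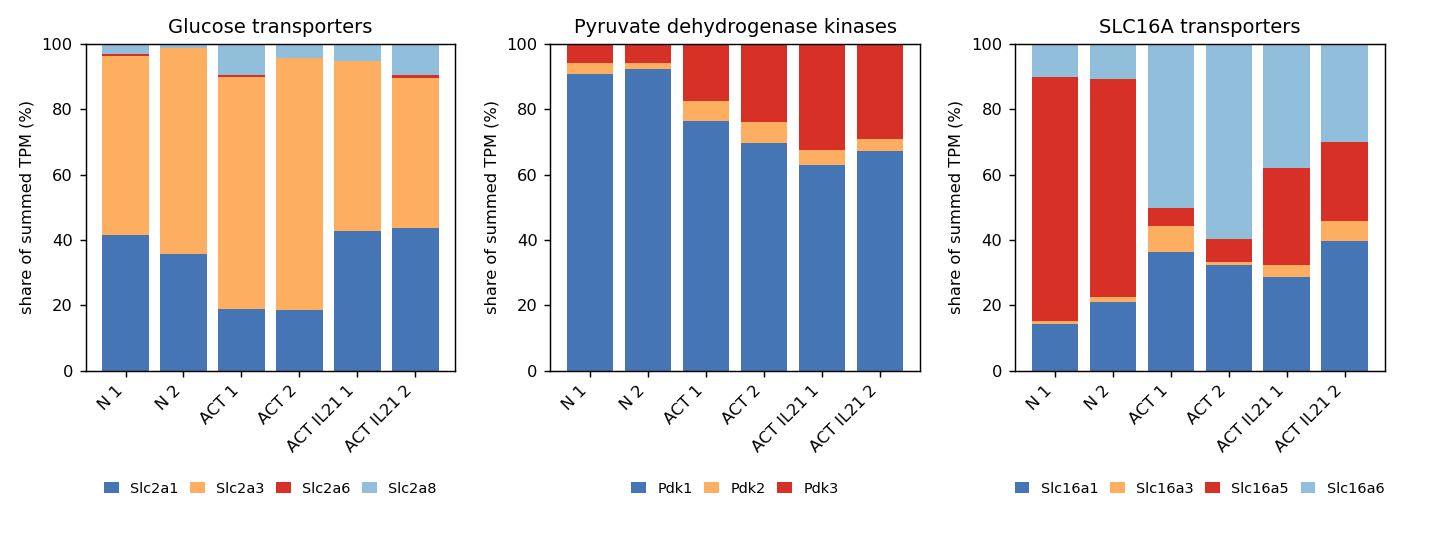
Share (%) of the summed TPM (y axis) taken by each gene of the glucose transporter, pyruvate dehydrogenase kinase and SLC16A groups in the 6 libraries (x axis, pool and replicate). Pdk1 takes 90.8% and 92.2% in N and 62.9% to 76.3% in the ICOS+ pools, and Slc16a5 goes from 66.6% and 74.7% in N to 5.63% and 6.97% in ACT.

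Slc16a5 had the largest change of the tested members. It encodes a member of the monocarboxylate transporter family (chromosome 11, 115462474 to 115474398, plus strand, protein-coding). It stood at 75.7 and 53.7 TPM in N, 2.95 and 3.72 TPM in ACT and 18.3 and 12.2 TPM in ACT IL21. The pools did not overlap, with N highest, ACT lowest and ACT IL21 between. It fell by 3.91 ± 0.32 SE on the log2 scale in ACT against N (limma adjusted p = 0.0006) and by 2.02 ± 0.32 in ACT IL21 against N (adjusted p = 0.0123), and was higher in ACT IL21 than in ACT (1.89 ± 0.32, adjusted p = 0.0288). The ACT call held under all 15 alternatives (adjusted p up to 0.0242). The ACT IL21 call against N ended without either N or either ACT IL21 library (adjusted p = 0.082 to 0.185). The difference between the ICOS+ pools ended without any 1 of the 6 libraries (adjusted p = 0.0791 to 0.232) and under 9 of 15 alternatives. ACT, the pool with the lowest Slc16a5, is also the pool with the high sum of natural killer and NKT markers. The part of these markers in the result was not tested.

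Slc16a6 (chromosome 11, 109450855 to 109473598, minus strand, protein-coding), a family member known as a ketone body transporter, went the other way. It was at 10.3 and 8.71 TPM in N, 26.3 and 31.9 TPM in ACT and 23.5 and 15.3 TPM in ACT IL21, and all ICOS+ libraries were above N. It rose in ACT (log2 fold change 1.52 ± 0.30 SE, limma adjusted p = 0.0267) and did not pass in ACT IL21 (0.93, adjusted p = 0.141). The ACT call ended without any 1 of the 6 libraries (adjusted p = 0.0512 to 0.225) and under 9 of 15 alternatives. The established lactate transporter genes were Slc16a1 (MCT1), at 14.3 to 20.1 TPM over the 6 libraries, and Slc16a3 (MCT4), the exporter of glycolytic cells, at most 4.13 TPM. Bsg, the basigin chaperone both need at the membrane, was at 53.6 and 36.8 TPM in N, 92.7 and 51.1 TPM in ACT and 75.9 and 53.0 TPM in ACT IL21. None of these 3 genes passed. Summed over the 4 SLC16A members, TPM was 101 and 80.6 in N, 52.4 and 53.3 in ACT and 61.8 and 50.9 in ACT IL21.

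Other genes of central carbon metabolism, taken from lists of related pathways, passed rarely. By limma, none passed in any of the 3 comparisons among 13 other glycolytic enzymes (Minpp1 most abundant, 23.3 to 35.3 TPM), 9 other pyruvate dehydrogenase and pyruvate carrier genes (Dld, 90.7 to 107 TPM), 11 pentose phosphate genes (Prps2, 77.3 TPM on average), 20 TCA cycle genes (Sdha, 174 to 213 TPM) or the 1 tested hexose transporter (Slc2a9, 4.14 to 13.2 TPM). At an unadjusted p under 0.05 these lists had at most 2 genes in a comparison, both in the TCA cycle in ACT against N (all genes: 2471 of 13311). List medians in ACT against N were -0.17 for glycolytic enzymes, 0.11 for pyruvate genes, 0.09 for the pentose phosphate pathway and 0.10 for the TCA cycle, beside 0.02 for all genes, and in ACT IL21 against N 0.01, -0.04, -0.03 and 0.16 beside 0.10.

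In 4 further lists some genes passed, read beside the shares of all genes given above (4.15%, 3.82% and 0.796% higher and 1.43%, 1.26% and 1.15% lower in the 3 comparisons). Of 4 other monocarboxylate transporter genes, Slc16a10, an aromatic amino acid transporter, rose in ACT against N (log2 fold change 1.5, limma adjusted p = 0.0486) and was lower in ACT IL21 than in ACT (-1.92, adjusted p = 0.0364), at 6.53 and 5.70 TPM in N, 22.4 and 16.2 TPM in ACT and 4.17 and 4.47 TPM in ACT IL21. Both calls ended without any 1 of the 6 libraries (adjusted p up to 0.327 and 0.214), and under 11 and 8 of 15 alternatives in all. That is the order of levels seen for Slc2a3, with ACT highest and ACT IL21 below N. The difference between ACT IL21 and N passed for neither gene (Slc16a10 -0.42, limma adjusted p = 0.596). Emb, the embigin chaperone of monocarboxylate transporters, was at 304 and 317 TPM in N, 224 and 248 TPM in ACT and 250 and 265 TPM in ACT IL21 without passing. Of 10 glycogen genes, Gyg, the glycogenin primer of glycogen synthesis, rose in ACT from 31.6 and 30.7 to 67.2 and 63.0 TPM (1.04, adjusted p = 0.0157). The Gyg call ended without either N library, ACT replicate 1 or ACT IL21 replicate 2 (adjusted p up to 0.151). No glycogen gene passed in the other comparisons by limma, where 4 and 3 had an unadjusted p under 0.05 (all genes: 2485 and 1978 of 13311).

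Among 18 partners of HIF and Myc and glucose sensors, 1 rose and 1 fell in ACT, and 1 rose in ACT IL21 against N. None passed between the ICOS+ pools, where 2 had an unadjusted p under 0.05 (all genes: 1978 of 13311). Egln3, a HIF prolyl hydroxylase gene that HIF itself induces, went from 1.51 and 0.93 TPM in N to 6.31 and 7.66 TPM in ACT and 16.3 and 12.6 TPM in ACT IL21, the same pool order as Hif1a. It rose in ACT over N (log2 fold change 1.85, limma adjusted p = 0.0342) and in ACT IL21 over N (2.80, adjusted p = 0.00673). The value in ACT IL21 against ACT, 0.94, did not pass (adjusted p = 0.314). The first call ended without any 1 of the 6 libraries (adjusted p up to 0.26) and the other without either N or either ACT IL21 library (up to 0.1). Txnip, whose product restrains glucose uptake and is induced by glucose, was at 415 and 355 TPM in N, 238 and 200 TPM in ACT and 243 and 250 TPM in ACT IL21. It fell in ACT (-0.81, adjusted p = 0.0215) and not past the threshold in ACT IL21 (-0.64, adjusted p = 0.0579). The Txnip call ended without every library but ACT replicate 1 (adjusted p up to 0.197).

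Of 11 HIF-responsive genes outside glycolysis, 2 rose in ACT (all genes: 4.15%) and 3 in ACT IL21 against N (3.82%), and 1 was lower in ACT IL21 than in ACT (1.15%). Bhlhe40, a transcriptional repressor gene induced by hypoxia and by T cell activation, stood at 4.49 and 5.94 TPM in N, 194 and 165 TPM in ACT and 62.3 and 75.8 TPM in ACT IL21. Its log2 fold changes against N were 4.86 and 3.50 (limma adjusted p = 3.44e-05 and 0.00022), and that between ACT IL21 and ACT was -1.37 (adjusted p = 0.0239). The calls against N held under all 15 alternatives, and the other ended without any 1 of the 6 libraries (adjusted p up to 0.216). Ddit4, a stress-induced inhibitor of mTORC1, rose in ACT IL21 from 9.78 and 11.3 to 25.5 and 26.9 TPM (1.24, adjusted p = 0.0404, ended under both rescalings and without either N or either ACT IL21 library, at up to 0.257). Egln3 was in this list too. The list's median was -0.14 in ACT (all genes: 0.02) and -0.22 in ACT IL21 (0.10), opposite in sign to the genes that rose. Cycling-cell markers, 4 of 12 of which rose in ACT and 6 of 12 in ACT IL21 against N, moved with the ICOS+ pools. The sum of the natural killer and NKT markers was highest in ACT, as Bhlhe40 and Slc16a10 were. The part of either marker list in these results was not tested.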

How the data were processed

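The authors deposited a table of gene-level TPM with a column for each library. The submitters' processing notes name RSEM, Bowtie and Trimmomatic, with GRCm38 as genome build. Tool versions and annotation were not given in the sources used here, nor was the strandedness of counting. RSEM estimates how ambiguous reads are shared between similar genes. Per the labels' protocols, polyadenylated RNA was amplified with a NuGEN Ovation kit. Each column sums to a fixed total, so a rise of abundant transcripts lowers all other values, and depth is unknown.

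The 38355 entries were reduced to 38216 symbols by summing 139 repeats. The 13311 genes that reached 1 TPM in 2 or more of the 6 libraries were fitted on log2(TPM + 1) with limma 3.58.1 (R 4.3.3). This scale understates changes of low genes. A single model held all 6 libraries with pool as its term and an intensity trend (3 residual and 4.84 prior degrees of freedom). Tests were two-sided with Benjamini-Hochberg adjustment over all genes tested, at a threshold of 0.05. The script was tested on simulated data.

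The members and the related gene lists were chosen with earlier results of these data known. A fold change with its test was given for members that passed, and for others beyond 1 in log2 size with a mean of at least 5 TPM. Some further members and list genes were given values or tests after their levels were seen. In related lists, up to 3 genes with the smallest p were named, or the most abundant. Near-identical copies were found with blastn 2.17.0. Coordinates are from GENCODE M21 and promoter windows from RefSeq (GRCm38.p6). Alternatives changed the pseudocount, filter, scaling, trend, replicate block, libraries and, chosen after seeing the data, the treatment of copies.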

Additional observations from a re-analysis of the deposited data

How the results depend on the processing

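For 27 results, the members and list genes that passed in a comparison and Pdk3 in ACT IL21 against N, the log2 fold change was recomputed under each alternative, and none reversed. Of these 405 values 259 kept their side of the threshold, 143 lost it and 3 gained it. The 3 were for Pdk3 in ACT IL21 against N. Leaving out 1 library left 205 to 526 genes called in ACT against N (743 with all libraries), 75 to 728 in ACT IL21 against N (677) and 0 to 81 in ACT IL21 against ACT (259). The count of 0, without ACT IL21 replicate 1, is from limma and stood beside 1631 genes at an unadjusted p under 0.05. Members called higher then numbered 0 to 3, 0 to 4 and 0 in the 3 comparisons, and members called lower 2, 1 to 3 and 0 to 1. The median log2 fold change of the members in these fits was 0.14 to 0.35, 0.24 to 0.44 and -0.12 to 0.26. That of all genes was -0.01 to 0.06, 0.06 to 0.13 and 0.05 to 0.09. With 1 library left, a pool is assumed to vary like the others.

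Without a filter on low values 469, 410 and 124 genes were called in the 3 comparisons, and with the compared pools alone 417 in ACT against N and 92 in ACT IL21 against ACT. Members called higher in ACT against N were 3 without the filter, 3 without an intensity trend and 2 with the compared pools alone. Those higher in ACT IL21 against N were 0 without the trend (9 at an unadjusted p under 0.05) and 2 with copies summed. In either direction 12 members had an unadjusted p under 0.05 without the trend, beside 2288 of 13311 genes. Those higher in ACT IL21 against ACT were 0 without the filter, without the trend and with the compared pools alone (4 unadjusted in each). In either direction 7, 6 and 7 members had an unadjusted p under 0.05 there. These stood beside 2211 of 18778, 1905 of 13311 and 1549 of 13311 genes. The cause of the lost calls was not tested.

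The replicate numbers are not stated to pair samples. Differences between replicates 1 and 2 correlated across genes at 0.21 between N and ACT, and at -0.004 and 0.0008 with ACT IL21. The numbers were taken as names only because the labels do not say what they share. Whether N and ACT libraries of the same number share a source was not tested. The main model leaves any such shared difference in its error. With the replicate block 784, 732 and 284 genes were called, with 5, 4 and 1 members higher and 2, 3 and 1 lower, and among named genes only Slc16a10 in ACT against N lost its call. Other fold changes in the text, and isoform shares under quantile normalization, were not recomputed. Low members such as Hk2, Hk3, Slc2a6 and Slc16a3 are limited by unknown depth.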
